A study of Caenorhabditis elegans with 2 samples.

Results

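The genes described here are 9 regulators and rate-setting enzymes of fat metabolism in Caenorhabditis elegans: the nuclear hormone receptor genes nhr-49, nhr-80, nhr-13, nhr-66 and nhr-62, the transcriptional coactivator gene mdt-15, the SREBP gene sbp-1, and the fatty acid synthesis genes pod-2 and fasn-1. They were chosen by name, as every probe whose systematic name or accession maps to one of these genes, and 20 probes were found for them. All 9 were measured on both arrays, out of 15301 genes measured on both and 19807 genes with a probe.

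The study compared whole young adult worms of the N2 strain raised from hatching at 20 °C on 1 of 2 bacteria. One group ate Escherichia coli OP50, the standard laboratory food, and the other ate Lysinibacillus sphaericus, a Gram-positive bacterium taken from soil. Both groups are wild type, and each is represented by 1 RNA sample on 1 one-colour Agilent array, so no difference below has a replicate or a p-value, and the spread between worm cultures is unknown. Whole worms were used, so for every gene fewer cells that express it and less RNA per cell cannot be told apart.

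Worms make fatty acids mainly in the intestine and epidermis. Acetyl-CoA carboxylase (POD-2) makes malonyl-CoA, fatty acid synthase (FASN-1) builds palmitate from it, and desaturases and elongases then shape the chain. SBP-1, the worm SREBP, switches on this programme, while NHR-49, a receptor related to mammalian HNF4 with functions like those of PPAR-alpha, drives desaturase genes and, in fasting, fat oxidation genes. MDT-15, a subunit of the Mediator complex that links transcription factors to RNA polymerase, is a coactivator of both. NHR-80, NHR-13 and NHR-66 bind NHR-49 and shape its output, and NHR-62 is known for its part in the long life of diet-restricted worms.

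Brightness differed between the arrays: the 75th percentile of the probe signals was 3368 for the L. sphaericus diet and 1440 for OP50. Each value was therefore divided by the 75th percentile of its own array before the diets were compared. A difference is the log2 scaled signal of the L. sphaericus-fed array minus that of the OP50-fed array, and a threshold of 2-fold is a log2 difference of 1. The scanner software's own error of a single probe's difference was between 0.20 and 0.23 for these probes. Where a gene had several probes, its value is their median, with the SD over probes as a second technical error. Both errors leave out the spread between cultures.

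Of the markers fixed for this check, all that matched the gene table were measured on both arrays. Germline and oocyte markers stood apart: 6 of 6 were at least 2-fold higher in L. sphaericus-fed worms, with a summed scaled signal of 55.4 against 10.6, in units of the 75th percentile. The 4 sperm markers were all at least 2-fold lower, with 0.434 against 2.88. That count fell to 2 of 4 with no scaling, with scaling on ribosomal protein genes and with loess centring. The germline and oocyte count stayed at 6 of 6 in those settings. The 5 measured intestine markers summed to 43.2 against 41.2, the 5 epidermis markers to 8.65 against 9.17, the 4 neuron markers to 20.7 against 20.4 and the 4 body wall muscle markers to 14.8 against 26.8. The 4 adult-stage markers summed to 103.4 against 60.5. Sums follow the brightest markers and can hide single ones. Of the intestine markers, act-5 was 1.06 and ges-1 −1.51, and of the neuron markers, unc-119 was 1.11 and unc-64 −1.81. Past 2-fold, 1 epidermis marker was higher and 0 lower, and 0 body wall muscle markers were either. Of the adult-stage markers, 2 were higher and 0 lower. No marker was listed at 0, and the part of these shifts in the results below was not tested.

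Among the 9 regulators, with 75th percentile scaling, sbp-1, nhr-80 and mdt-15 were at least 2-fold lower in L. sphaericus-fed worms and 0 were at least 2-fold higher. With scaling on the median probe this turned to 3 higher (fasn-1, nhr-66 and pod-2) and 1 lower (sbp-1). The matching shares for all genes were 37.9% and 20.8%, so 3 of 9 higher was not above the share there. With scaling on ribosomal protein genes the regulator counts were 3 and 0, next to 6385 and 2725 of all 15301. Over all measured genes with 75th percentile scaling, 32.6% were at least 2-fold lower, 22.1% at least 2-fold higher and 54.7% either. With that scaling 3 of 9 lower is thus close to the share of all genes. The median of the 9 genes was −0.31, against −0.20 for all genes. Within the set, the order ran from fasn-1, nhr-66 and pod-2 at the higher end to sbp-1 at the lower end. From fasn-1 to sbp-1 the span was 2.32 log2 units, or 5.01-fold. The quartiles of all genes were −1.40 and 0.88, and all members but sbp-1 lay between them, so the span is not particular to this set. Scaling that adds a constant to every difference cannot change that order.

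**Figure D1:**
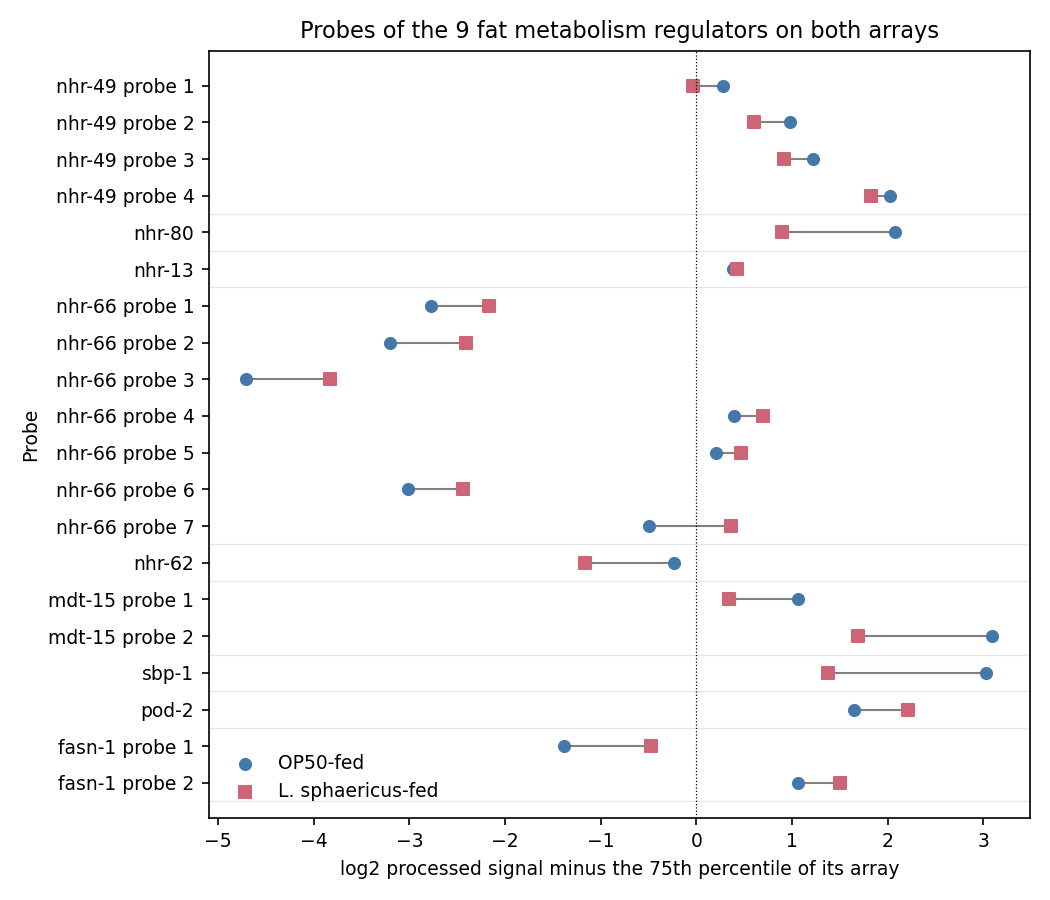
Each row is 1 of the 20 probes of the 9 genes; the horizontal axis is the log2 processed signal minus the 75th percentile of its array, with a circle for the OP50-fed array and a square for the L. sphaericus-fed array. Levels should be compared along a row only, since probes differ in brightness; all probes of nhr-49, mdt-15, nhr-80, nhr-62 and sbp-1 lie further left in L. sphaericus-fed worms and all probes of nhr-66, pod-2 and fasn-1 further right.

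The receptor gene nhr-49 differed little. Its 4 probes had processed signals of 1747, 2848, 3366 and 5848 in OP50-fed worms and of 3292, 5104, 6368 and 11954 in L. sphaericus-fed worms. All 4 roughly followed the overall brightness of the arrays: the scaled difference was −0.31 ± 0.08 (SD over 4 probes), from −0.38 to −0.19. The gene thus lay 1.24-fold lower in L. sphaericus-fed worms with this scaling, and 47.8% of all measured genes had a lower difference. Its sign follows the scaling, since it was 0.34 when the arrays were scaled on their median probe and 0.92 with no scaling.

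The gene nhr-80, whose receptor acts with NHR-49 on desaturase genes, had 1 probe. Its processed signal was 6065 in OP50-fed worms and 6261 in L. sphaericus-fed worms, an unscaled ratio of 1.03 on arrays that differ 2.34-fold at the 75th percentile. The scaled difference was −1.18 (scanner error 0.20), or 2.27-fold lower. The probe stood at the 91.0th percentile of all probes in OP50-fed worms and at the 81.6th on the other. With no scaling its difference was 0.046.

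The gene nhr-62 was also on the lower side, with 1 probe at 1229 in OP50-fed worms and 1506 in L. sphaericus-fed worms. The scaled difference was −0.93 (scanner error 0.20), or 1.91-fold lower, just outside the 2-fold threshold. It cannot be told apart from mdt-15 just inside it, at 2.09-fold lower, within the technical error. In the RefSeq gene table of assembly WBcel235 nhr-62 lies close to nhr-49, with 4 protein-coding genes between them.

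The gene nhr-13, whose product binds NHR-49, had 1 probe with signals of 1876 in OP50-fed worms and 4517 in L. sphaericus-fed worms. Its scaled difference was 0.04 (scanner error 0.20), so it tracked the 75th percentile of the arrays within the scanner error.

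The gene nhr-66, whose product works with NHR-49 to hold down sphingolipid and lipid remodelling genes, was, with 75th percentile scaling, the only one of the 5 receptor genes with a positive difference beyond its technical error. Its 7 probes had signals from 55.2 to 1891 in OP50-fed worms and from 237.6 to 5477 in L. sphaericus-fed worms. All 7 were higher after scaling, with a median difference of 0.60 ± 0.25 (SD over 7 probes) and a range from 0.26 to 0.88. The probes did not form a single value. The pair brightest in OP50-fed worms gave 0.26 and 0.31, the 4 probes with OP50-fed signals of 211.1 or less gave 0.58 to 0.88, and a probe of middle brightness gave 0.86. With quantile normalization and loess centring the gene's difference was 1.18 and 1.25, and with normexp background correction it was 0.30.

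Within the receptor family these genes lay from near the top to just below the middle. Of 208 nuclear hormone receptor genes measured, 118 (56.7%) were at least 2-fold lower and 3 (1.4%) at least 2-fold higher. Over all genes these shares were 32.6% and 22.1%. With scaling on the median probe the family counts were 52 and 10, against 20.8% and 37.9% of all genes. The family median with 75th percentile scaling was −1.11, against −0.20 for all genes. Counted from the highest difference, nhr-66 was 6th, nhr-13 21st, nhr-49 32nd, nhr-62 85th and nhr-80 110th of the 208. For nhr-49, 84.6% of the family had a lower difference, against 47.8% of all genes, and for nhr-80 the shares were 47.1% and 29.1%. These ranks are the same under every scaling by a constant. They moved with quantile normalization and loess centring, where nhr-49 was 79th and 86th, nhr-13 48th and 56th, nhr-62 101st and 109th and nhr-80 157th and 165th, while nhr-66 was 5th and 6th. With the brightest probe of each gene, nhr-66 was 13th.

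**Figure D2:**
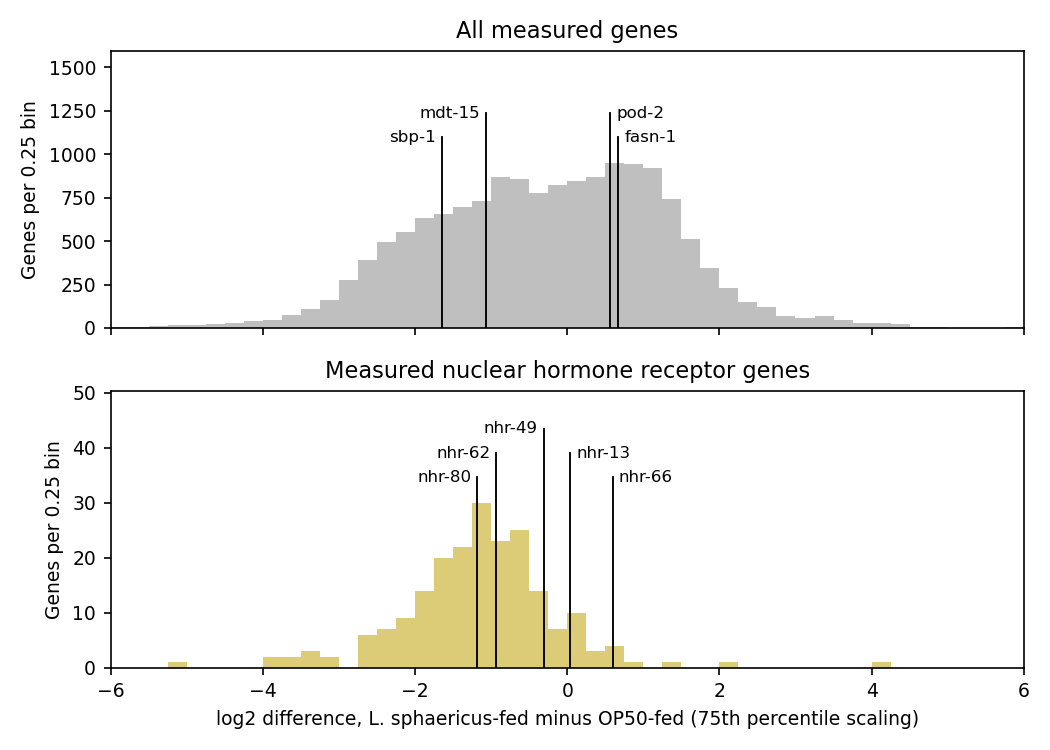
The horizontal axis is the log2 difference, L. sphaericus-fed minus OP50-fed, after 75th percentile scaling, and bars count genes per bin for all 15301 measured genes (top, 44 of them beyond the axis) and for the 208 measured nuclear hormone receptor genes (bottom). Vertical lines mark the 9 regulators: sbp-1 at −1.65 and fasn-1 at 0.67 frame the set, and nhr-66 lies in the upper tail of the receptor family.

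The coactivator gene mdt-15 had 2 probes, named in the array design after different isoforms. The probe named after isoform a had signals of 3016 in OP50-fed worms and 4266 in L. sphaericus-fed worms, a scaled difference of −0.73. The probe named after isoform b had signals of 12319 and 10877, a scaled difference of −1.41. Both were lower after scaling, with a median of −1.07 ± 0.48 (SD over 2 probes) or 2.09-fold lower, and the 0.68 between them exceeds the scanner error of a probe. With no scaling the gene was at 0.16, with 1 probe on each side of 0.

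Other Mediator subunits were on the opposite side from mdt-15. Of 24 measured, 13 were at least 2-fold higher and 0 lower, against 22.1% and 32.6% of all genes, and 23 of 24 had a difference above 0. Their median was 1.08, or 1.28 above the median of all genes. The kinase module gene cdk-8 was 1.93 (1178 in OP50-fed worms and 10524 on the other) and mdt-8 was 1.63 ± 0.02 (SD over 2 probes). The lowest was dpy-22 at −0.61, and all 24 were above mdt-15, whose difference minus their median was −2.15. In each of the 12 other settings tried, 0 measured Mediator genes lay below mdt-15, and this distance to their median ranged from −2.41 to −1.99. Scalings by a constant and the deposited table, which repeats the same signals, could not change that order or distance. Quantile normalization and loess centring, which could, gave distances of −2.26 and −2.24. With scaling on the median probe, 20 of the 24 were at least 2-fold higher and 0 lower, against 37.9% and 20.8% of all genes. This comparison has no test, and germline and oocyte markers were higher on the same array, as given above.

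The SREBP gene sbp-1 had the lowest difference of the 9. Its 1 probe had a signal of 11758 in OP50-fed worms and 8755 in L. sphaericus-fed worms, so it was dimmer even before scaling, although the array was the brighter one. The scaled difference was −1.65 (scanner error 0.20), or 3.14-fold lower, and 20.7% of all genes were lower still. Its sign held in all settings, from −1.88 with loess centring to −0.43 with no scaling. The probe moved from the 94.5th to the 85.2nd percentile of its array.

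Genes around SREBP control and phosphatidylcholine synthesis, a lipid whose shortage is known to activate SBP-1, went both ways. Of 10 measured, 2 were at least 2-fold higher and 4 lower, against 22.1% and 32.6% of all genes. With scaling on the median probe they were 4 and 1, against 37.9% and 20.8% of all genes. The gene pcyt-1, for the enzyme that makes CDP-choline, was 2.71 ± 0.45 (SD over 2 probes), and pmt-2, for the second phosphoethanolamine methyltransferase, was 1.33 ± 0.09 (SD over 2 probes). The gene pmt-1, for the first of these methyltransferases, was −2.23 ± 0.27 (SD over 3 probes), and sams-1, for S-adenosylmethionine synthetase, was −1.59 on 1 dim probe with signals of 69.1 in OP50-fed worms and 53.6 on the other. The gene scp-1, for the worm SCAP that escorts SREBP, was −0.05.

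The genes of both fatty acid synthesis enzymes were on the higher side. The pod-2 probe had a signal of 4509 in OP50-fed worms and 15616 in L. sphaericus-fed worms, a scaled difference of 0.57 (scanner error 0.20) or 1.48-fold higher. One fasn-1 probe had signals of 554 and 2434, a difference of 0.91, and the other 3021 and 9554, a difference of 0.44. The gene's median was 0.67 ± 0.34 (SD over 2 probes), or 1.59-fold higher, and 69.8% of all genes were lower. Neither enzyme reached 2-fold, and their differences of 0.57 and 0.67 lay within the technical error of each other. With scaling on the median probe they were 1.21 and 1.32, both past 2-fold. There 37.9% of all genes were at least 2-fold higher, 20.8% lower and 58.7% either.

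The gap between these enzymes and sbp-1 does not depend on scaling by a constant. The difference of sbp-1 minus that of pod-2 was −2.22 (technical error 0.29), a 4.65-fold gap, and minus that of fasn-1 it was −2.32 (technical error 0.39). For scale, the differences of all genes had an SD of 1.61. Over the 12 other settings these gaps ranged from −2.38 to −2.11 and from −2.52 to −2.09. Scalings by a constant and the deposited table, which repeats the same signals, leave any gap as it was by construction. For sbp-1 and pod-2, with 1 probe each, only quantile normalization, loess centring and normexp could move the gap. Of the 36 pairs among the 9 genes, 23 differed by at least 2 technical errors. All 23 kept their sign in every setting tried, including those that could change a gap. Sorted by difference, the order was fasn-1, nhr-66, pod-2, nhr-13, nhr-49, nhr-62, mdt-15, nhr-80 and sbp-1. Among neighbours in it, nhr-49 and nhr-62 were more than 2 technical errors apart, with a gap of 0.62, and the other neighbours were not.

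**Figure D3:**
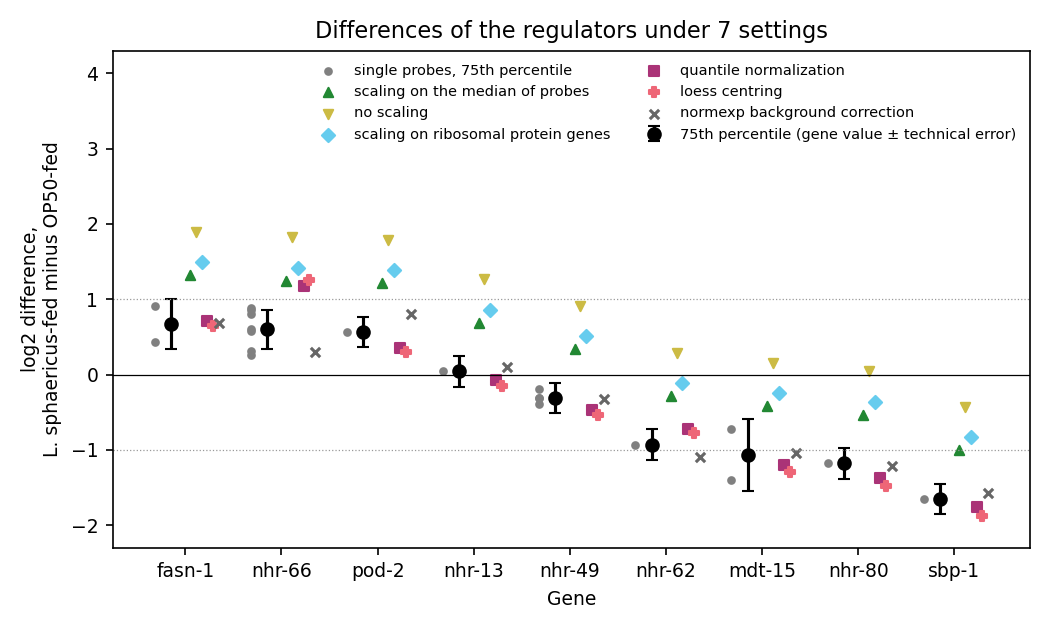
The vertical axis is the log2 difference (L. sphaericus diet minus OP50 diet) and the horizontal axis holds the 9 genes in order of difference; black circles with bars are the gene value with 75th percentile scaling and the larger of the scanner error and the SD over probes, grey dots are single probes, and coloured symbols are the other settings. Dotted lines mark 2-fold. Under all 7 settings drawn sbp-1 is below 0 and fasn-1, nhr-66 and pod-2 are above 0, while nhr-13, nhr-49, nhr-62, mdt-15 and nhr-80 lie on both sides.

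The list of genes around fatty acid synthesis mixes enzymes of supply, of chain elongation and of malonyl-CoA breakdown. Its genes were mostly on the same side as pod-2 and fasn-1. Of 10 measured, 4 were at least 2-fold higher and 0 lower, against 22.1% and 32.6% of all genes. With scaling on the median probe they were 5 and 0, against 37.9% and 20.8% of all genes. Their median with 75th percentile scaling was 0.56, or 0.75 above that of all genes. The ATP citrate lyase genes acly-1 and acly-2, whose enzymes make cytosolic acetyl-CoA, were 2.51 ± 0.48 (SD over 4 probes) and 1.91. The acly-2 probe had signals of 5815 in OP50-fed worms and 50982 on the other. The gene bpl-1, for the biotin protein ligase that activates acetyl-CoA carboxylase, was 0.20 ± 0.15 (SD over 5 probes) and let-767, for a reductase of chain elongation, was −0.22.

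Of 14 measured desaturase and elongase genes, 1 (7.1%) was at least 2-fold higher and 6 (42.9%) lower, against 22.1% and 32.6% of all genes. With scaling on the median probe they were 5 and 3, against 37.9% and 20.8% of all genes. The median of −0.17 with 75th percentile scaling was close to that of all genes. These counts leave out fat-7, which was well above background in L. sphaericus-fed worms alone. The elongase gene elo-2 was highest of the 14 at 2.95, and the delta-6 desaturase gene fat-3 and elo-7 were lowest at −2.84 and −2.35. Among 14 genes of fat storage, 2 (14.3%) were at least 2-fold higher and 1 (7.1%) lower with 75th percentile scaling, both below the shares of all genes. With scaling on the median probe they were 6 and 1, against 37.9% and 20.8% of all genes, so the higher side was no longer below its share. The glycerol-3-phosphate acyltransferase gene acl-6 was 1.54, lid-1, whose product helps the lipase ATGL-1, was 1.48 ± 0.07 (SD over 4 probes), and dgat-2, for the last enzyme of triglyceride synthesis, was −1.77.

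Genes known to depend on NHR-49 covered a far wider range than the receptor and coactivator genes. The list has 9 genes, of which fat-7, given below, was well above background in L. sphaericus-fed worms alone, at least 521-fold higher, and is not in the counts. Of the 8 measured on both arrays, 0 were at least 2-fold higher and 6 lower, against 22.1% and 32.6% of all genes. With scaling on the median probe they were 0 and 5, against 37.9% and 20.8% of all genes. Their median with 75th percentile scaling was −2.08, or −1.89 relative to that of all genes. The list was chosen with earlier results of these data known, so its counts are a description only. The fasting-induced acyl-CoA synthetase gene acs-2 was at −6.41 ± 0.26 (SD over 6 probes) and the flavin monooxygenase gene fmo-2 at −7.52, with signals of 9228 in OP50-fed worms and 117.5 on the other. The glyoxylate cycle gene icl-1 was −4.06 ± 0.64 (SD over 7 probes). The carnitine palmitoyltransferase gene cpt-5 was −2.15 and the hydroxyacyl-CoA dehydrogenase gene hacd-1 −1.54, while the enoyl-CoA hydratase gene ech-1.1 was 0.30.

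The 3 stearoyl-CoA or palmitoyl-CoA desaturase genes under NHR-49, NHR-80, MDT-15 and SBP-1 gave 3 unlike values. The palmitoyl-CoA desaturase gene fat-5 was −2.02 ± 0.06 (SD over 4 probes), with median signals of 29123 in OP50-fed worms and 16775 in L. sphaericus-fed worms. The gene fat-6 was −0.57 ± 0.24 (SD over 3 probes), with 52143 and 64812. Its close paralog fat-7 passed the background flag in L. sphaericus-fed worms only, with signals of 20.5 in OP50-fed worms and 25029 on the other, at least 521-fold higher. That bound is set against the probe's own signal in OP50-fed worms, which was not well above background but exceeded the lowest signal that was. In OP50-fed worms the fat-7 probe thus stayed at 20.5 where the fat-6 probes had a median signal of 52143. Because the proteins and genes of fat-6 and fat-7 are alike, a fat-6 probe may read part of the fat-7 RNA, which was not tested.

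**Figure D4:**
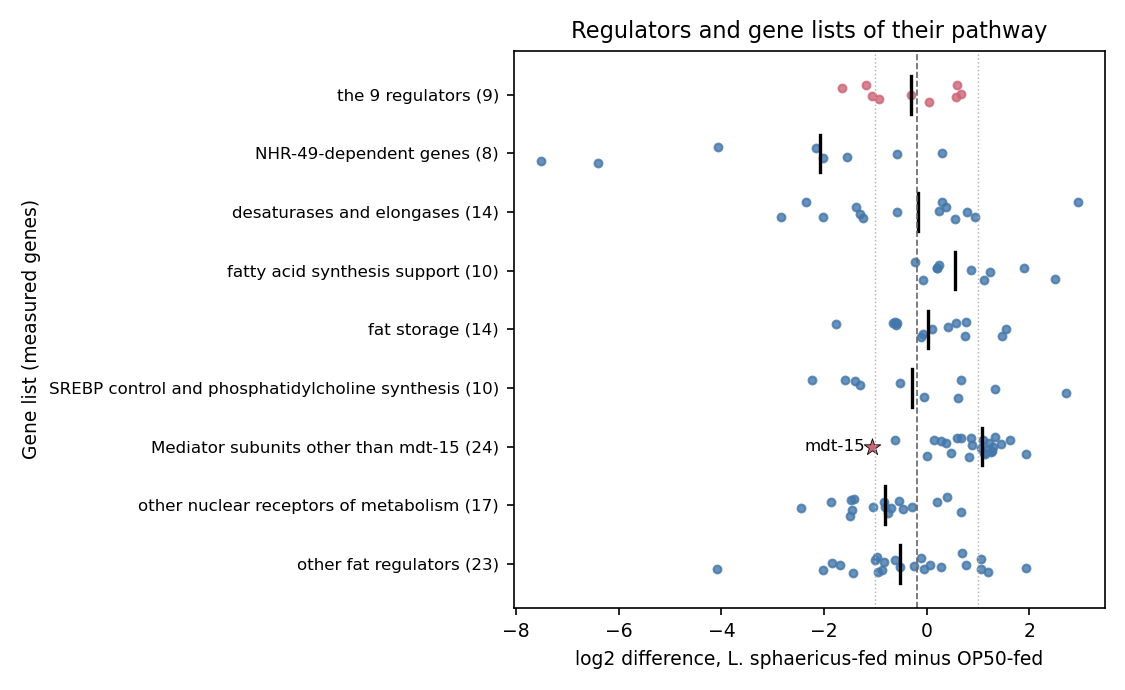
Each point is a measured gene, placed by its log2 difference, L. sphaericus-fed minus OP50-fed, with the 9 regulators on the top row and 1 pathway list per row below; short black bars are medians, the dashed line is the median of all genes (−0.20) and dotted lines mark 2-fold. The star for mdt-15 lies left of all 24 other Mediator genes, and the NHR-49-dependent genes reach −7.52 while the regulators span −1.65 to 0.67.

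Other nuclear receptors of metabolism were mostly below 0 with 75th percentile scaling. Of 17 measured, 0 were at least 2-fold higher and 7 (41.2%) lower, against 22.1% and 32.6% of all genes. With scaling on the median probe they were 2 and 2, against 37.9% and 20.8% of all genes. Their median was −0.81, against −0.20 for all genes and −1.11 for the whole receptor family. In that family 56.7% were at least 2-fold lower. The dafachronic acid receptor gene daf-12 was −2.44 ± 0.08 (SD over 2 probes) and nhr-64 was −1.87, while nhr-85 was well above background in OP50-fed worms only, at least 8.24-fold higher there, a bound set against the lowest signal well above background on the other array. Of 23 other fat regulators, 4 (17.4%) were at least 2-fold higher and 5 (21.7%) lower, both below the shares of all genes. With scaling on the median probe they were 6 and 4, against 37.9% and 20.8% of all genes. Their median with 75th percentile scaling was −0.52. The thiolase gene kat-1 was 1.94 and the C/EBP gene cebp-2 was 2.30-fold higher. The helix-loop-helix gene mxl-3, whose product represses lysosomal lipase genes in fed worms, was −4.07, with signals of 21570 in OP50-fed worms and 2994 on the other, and the Tubby gene tub-1 was −2.02.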

How the data were processed

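Per the file headers, the authors read each array with Agilent Feature Extraction 11.0.1.1, which wrote background-subtracted signal intensity, its error and quality flags for each spot; both deposited files give linear intensity with no scaling between arrays. The deposited series-wide table repeats that intensity: 43567 and 43571 of 43579 probes lay within 0.01 log2 units of the scanner value.

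Control spots and 36 outlier spots were left out, repeated spots averaged on the log2 scale, and the 75th percentile of each array subtracted. Probes well above background on both arrays (31043) count as measured. Probes were named by locus (30958) or RefSeq accession (3340) in the WBcel235 gene table; 9281 stayed unnamed. Coordinates were not used, because the array design was made on another build. Alternatives were other scalings, normexp (limma 3.58.1), dim-probe filters, other probe summaries, the deposited table and 1.5-fold and 3-fold thresholds.

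The members and lists were chosen with earlier results of these data known. All 9 members are named, with all NHR-49-dependent genes and, per list, the 2 furthest genes each way past 2-fold. Likeness of pattern was not ranked, since 2 arrays give each gene 1 difference. The genes bpl-1, let-767, scp-1, dpy-22 and nhr-85 were named outside that rule, after their values were seen. The number of arrays limits the precision.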

Additional observations from a re-analysis of the deposited data

How the results depend on the processing

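With 1 array per diet no replicate could be left out. No paired analysis was possible because each diet has 1 array and no test was run. Scaling decides most counts. With scaling on the median probe, 3 of the 9 regulators were at least 2-fold higher and 1 lower, and over all genes 5798 and 3177. Without scaling these were 4 and 0, and 7749 and 1770. With ribosomal protein scaling they were 3 and 0, and 6385 and 2725. Quantile normalization and loess centring each gave 1 regulator higher and 3 lower. Over all genes quantile normalization gave 3979 higher and 3899 lower, and loess centring 3849 and 3785. At 1.5-fold 2 regulators were higher and 4 lower, with 4973 genes higher and 6418 lower. At 3-fold 0 regulators were higher and 1 lower, with 1510 genes higher and 3321 lower. With the brighter part of the probes (from the median signal up), 1722 genes were lower.

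By gene, in the order median-probe, no and ribosomal scaling, the log2 differences were as follows. The gene nhr-49 had 0.34, 0.92 and 0.51, nhr-80 had −0.54, 0.046 and −0.36, nhr-13 had 0.69, 1.27 and 0.86, and nhr-66 had 1.24, 1.83 and 1.42. For nhr-62 they were −0.29, 0.29 and −0.11, for mdt-15 −0.42, 0.16 and −0.25, and for sbp-1 −1.01, −0.43 and −0.83. For pod-2 they were 1.21, 1.79 and 1.39 and for fasn-1 1.32, 1.90 and 1.49. Of the 3 regulators past 2-fold, nhr-80 and mdt-15 turned sign, both with no scaling, which leaves the brightness gap of the arrays in place. Quantile normalization gave 1.18 for nhr-66, −0.72 for nhr-62 and 0.35 for pod-2. Loess centring gave −0.53 for nhr-49, −1.48 for nhr-80, 1.25 for nhr-66, −1.88 for sbp-1 and 0.30 for pod-2. Normexp, chosen after seeing the data in its form on median spot signals because the files used here hold no mean spot signal, gave 0.30 for nhr-66 and 0.81 for pod-2. Bright probes only, or the brightest probe, gave 0.31 for nhr-66. The shift of the median of all genes was 0.64, 1.23 and 0.82 under the 3 scalings. The causes of these changes were not tested beyond what each setting does by construction. All 20 probes were well above background on both arrays, the dimmest, of nhr-66, at 55.2 in OP50-fed worms, where the lowest such signal was 15.7.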
